A study of Mus musculus with 2 samples.

Results

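MHC class II molecules display peptides from the endosomal pathway to CD4+ T cells, and in islets resident macrophages are among the cells that carry them. H2-Aa, H2-Ab1 and H2-Eb1 encode the α and β chains that bind the peptide. Cd74 encodes the invariant chain, which holds the groove closed on the way to the endosome. H2-DMa, H2-DMb1 and H2-DMb2 encode the α chain and the alternative β chains of H2-M (DM), the chaperone that exchanges the last piece of the invariant chain for a peptide. Ciita encodes the transactivator that is recruited to class II promoters and is the known master regulator of this gene set. These 8 genes were chosen by name, with no threshold on a measured value but with earlier results of these data known. All 8 were among the 31053 genes listed in both libraries.

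The libraries held immune cells from the pancreatic islets of male C57BL/6J mice on chow diet, each from a pool of 6 to 8 animals. One pool was labelled 12 weeks and the other 1 week. What these weeks were counted from is not stated in the labels. The titles number the libraries as replicates 1 and 2 although their time labels differ, and the time label was taken as the group. Each time label is a single library, so no test was run between them, and a difference of time cannot be told apart from a difference between 2 pools. Cells had been sorted as live (DAPI-negative), Epcam-negative and CD45-positive, and unique molecular identifiers (UMIs) were counted at the 3′ ends of transcripts. One captured molecule gives 1 UMI whatever the length of the transcript, and a level is given below in CPM, the UMIs of a gene scaled to the total UMIs of its class.

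Of 1867 barcodes at 12 weeks and 1551 at 1 week, 1752 and 1340 passed the filters, with medians of 6828.5 UMIs at 12 weeks and 7392 at 1 week. The libraries shared 3 barcode sequences. Cells were put in classes by UMIs of marker genes, none of which was a class II gene. Macrophages, in which the 3 C1q chain genes summed to 5 UMIs or more, numbered 1620 at 12 weeks (92.5% of cells kept, exact 95% interval 91.1 to 93.7) and 1243 at 1 week (92.8%, 91.2 to 94.1). The classes with fewer than 5 C1q UMIs were small. They were set by the summed UMIs of a list of B cell markers for B cells, of CD3 and T cell receptor genes for T cells, and of Flt3, Zbtb46, Xcr1, Clec9a, Cd209a, Ccr7, Fscn1, Ccl17 and Ccl22 for dendritic cells. B cells numbered 23 at 12 weeks and 25 at 1 week, dendritic cells 25 and 12, and T cells 25 and 8. T cells of the mouse are not known to make class II, so the T class was taken as the background level in cells without the genes. Free RNA can add to this level. Mixed droplets add to it only where they passed the T gate, which leaves out those with 5 or more C1q UMIs. A check list of 8 further macrophage markers, all of them detected in macrophages, summed to 31214 CPM in macrophages at 12 weeks and 27539 at 1 week, against 1466 and 574 in B cells, 772 and 399 in dendritic cells and 661 and 166 in T cells.

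Macrophages devoted a larger part of their messenger RNA to class II than B cells did, and a slightly larger part than dendritic cells. The 8 genes together made up 7.11% of macrophage UMIs at 12 weeks (exact 95% interval 7.09 to 7.12, counting error only, as for every interval given here) and 6.57% at 1 week (6.55 to 6.58). In B cells they made up 2.004% (1.92 to 2.09) at 12 weeks and 1.26% (1.21 to 1.31) at 1 week, and in dendritic cells 6.65% (6.54 to 6.76) and 5.58% (5.45 to 5.72). T cells stood at 0.263% (0.234 to 0.294) at 12 weeks and at 0.0332% (0.0143 to 0.0654) at 1 week. The level at 12 weeks rests in part on 1 T cell. At 3000 UMIs per cell that cell held 61 UMIs of H2-Aa, H2-Ab1, H2-Eb1 and Cd74, against a median of 2.5 in T cells. Where these UMIs came from was not tested.

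Markers of plasma cells, which are known to shut down class II genes, differed between the B classes of the libraries. The list of Jchain, Xbp1 and Mzb1 summed to 434 CPM at 12 weeks, with Jchain at 0, and to 15660 CPM at 1 week. At 1 week 3 of the 25 B cells held 822 to 1114 UMIs of this list each, and these 3 cells held 52833 of the 186532 B-cell UMIs. Their class II share was 0.201% (0.164 to 0.243), and they had 0 UMIs of Ciita, H2-DMb1 and H2-DMb2. The other 22 B cells had at most 8 UMIs of the list and a class II share of 1.67% (1.61 to 1.74). The class tests and the H2-DMb1 share were also computed without these 3 cells, a step added after they were seen. The tests called the same numbers of members in each direction, with Ciita too low to be tested, and the share was unchanged since these cells hold neither DM β gene.

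The peptide-binding chains and their invariant chain stood far higher in macrophages than in B cells and lay close together in macrophages and dendritic cells, as the plot of CPM by class shows. Cd74, the invariant chain (chr18:60803848-60812652 in GRCm38, plus strand), stood at 32414 CPM in macrophages at 12 weeks, with 9622 in B cells, 27036 in dendritic cells and 1183 in T cells of that library. At 1 week Cd74 stood at 31224 CPM in macrophages, 7404 in B cells, 23673 in dendritic cells and 83.0 in T cells. In both libraries macrophages were highest, dendritic cells next and B cells lower, with T cells at the bottom.

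**Figure D1:**
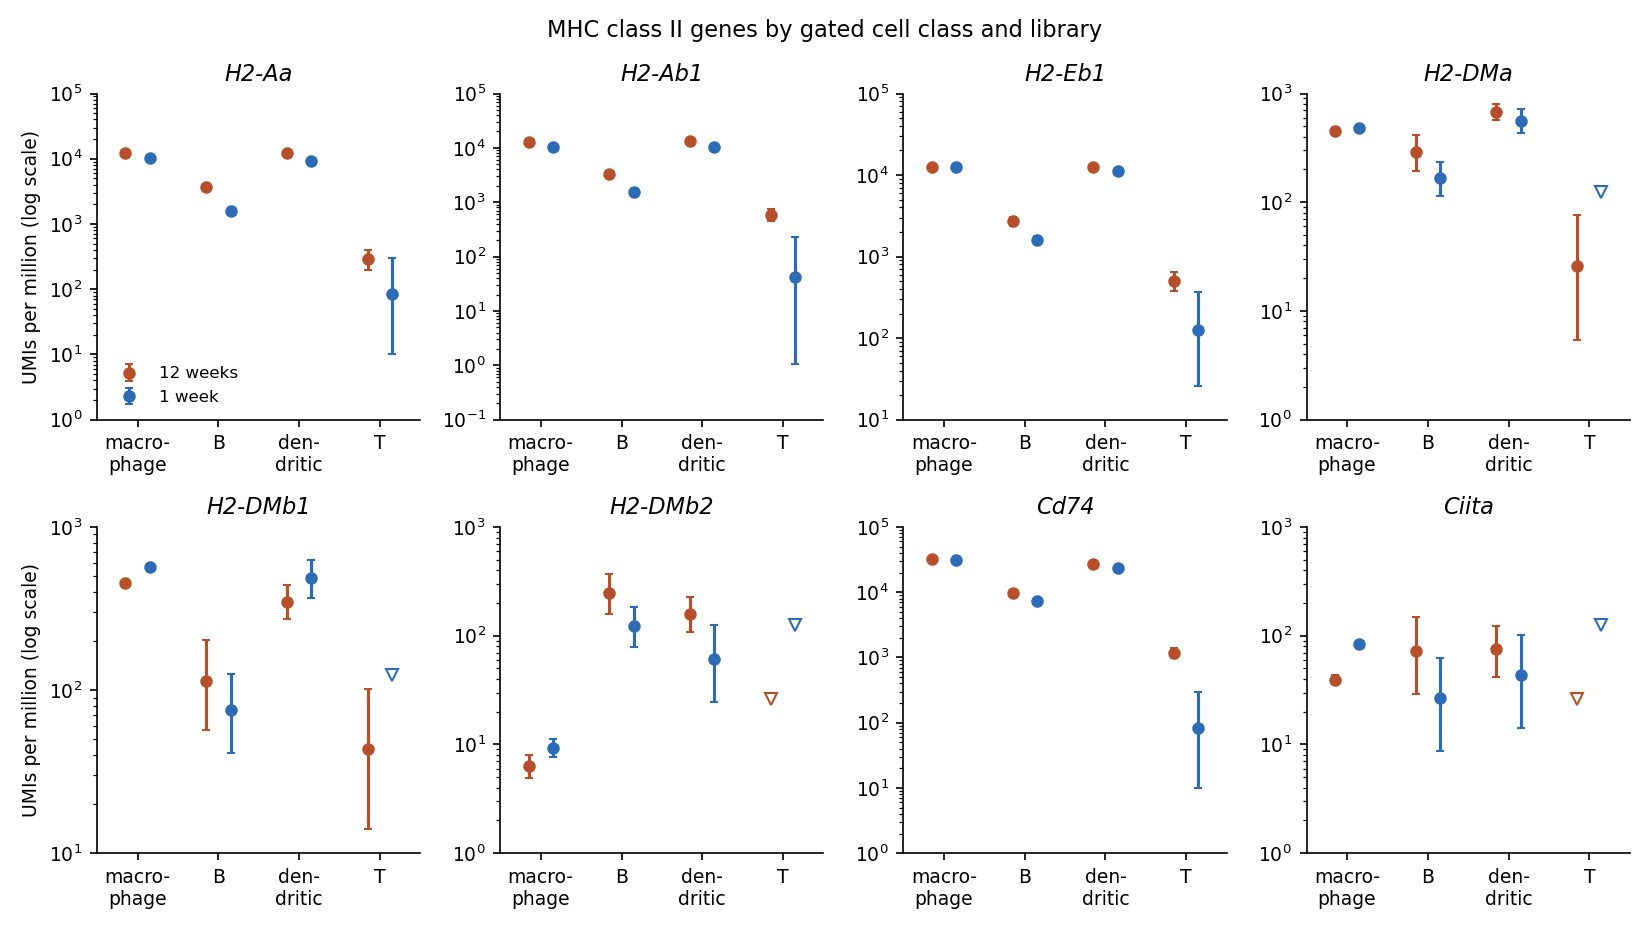
Level of each class II gene in CPM (log axis) in macrophages, B cells, dendritic cells and T cells of the 12-week and 1-week libraries; bars are exact Poisson 95% intervals, and open triangles mark the limit of 3 UMIs where none was counted. H2-DMb2 is the gene for which macrophages lie below both B and dendritic cells in each library, at 6.29 and 9.29 CPM.

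H2-Aa, the α chain of I-A, had 12363 CPM in macrophages, 3737 in B cells, 12315 in dendritic cells and 287 in T cells at 12 weeks. At 1 week it had 10405 CPM in macrophages, 1587 in B cells, 9393 in dendritic cells and 83.0 in T cells. Macrophages and dendritic cells of 1 library differed by less than the libraries did. H2-Ab1, the β chain that pairs with it, had 12861 CPM in macrophages, 3262 in B cells, 13306 in dendritic cells and 592 in T cells at 12 weeks. At 1 week H2-Ab1 had 10301, 1565, 10417 and 41.5 CPM in macrophages, B cells, dendritic cells and T cells. H2-Eb1, the β chain of I-E, averaged 12542 ± 82.1 CPM in macrophages, 2157 ± 761 in B cells, 11889 ± 989 in dendritic cells and 310 ± 263 in T cells (SD, n = 2 libraries). C57BL/6 mice are known to lack a working I-E α chain, so this β chain is transcribed in a strain without its usual partner; H2-Ea is not analysed here.

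Against B cells, 6 of the 8 genes were higher and 1 lower in macrophages. Of 2632 genes tested between macrophages and B cells 37.2% were called, 24.5% higher and 12.7% lower. The tests were edgeR quasi-likelihood tests on UMIs summed per class and library, with Benjamini-Hochberg adjustment over all genes at 0.05. On the log2 scale H2-Eb1 was higher by 2.72 (SE 0.39, edgeR adjusted p = 8.31e-05), H2-Ab1 by 2.48 (SE 0.44, adjusted p = 0.000484), H2-Aa by 2.34 (SE 0.35, adjusted p = 0.000119) and Cd74 by 2.02 (SE 0.51, adjusted p = 0.0063). H2-DMb1 was higher by 2.60 (SE 0.39, adjusted p = 0.00012) and H2-DMa by 1.21 (SE 0.33, adjusted p = 0.0101). The median over the 8 genes was 2.18, against 0.08 over all genes tested.

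Against dendritic cells, none of the 8 genes was called higher, and H2-DMb2 was called lower. Of the 2632 genes tested 19.6% were called, 12.3% of the 2632 higher and 7.29% lower. The other 7 log2 differences ran from -0.28 for H2-DMa to 0.47 for Cd74, with SEs from 0.30 to 0.50 and edgeR adjusted p from 0.393 to 0.997, which does not show that the classes are alike. The median over the 8 genes was 0.15, against 0.05 over all genes. A single alternative called a further gene: without the T class in the fit, Cd74 was higher in macrophages by 0.54 (edgeR adjusted p = 0.00726; 0.00726 to 0.974 over the alternatives).

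B cells were lower than dendritic cells in 6 of the 8 genes and higher in 0, with 20.6% of the 2632 genes called, 5.32% higher and 15.3% lower. The log2 folds were -2.5 for H2-Eb1, -2.38 for H2-Ab1, -2.13 for H2-Aa, -2.17 for H2-DMb1, -1.50 for H2-DMa and -1.56 for Cd74 (edgeR adjusted p from 0.000435 to 0.041). Cd74 lost this call with DESeq2, without the library block and with the dendritic gate at 2 or 5 UMIs. When macrophages were set against the mean of B and dendritic cells, 5 members were higher and 1 lower, with 30.7% of all genes called, 23.3% higher and 7.41% lower. H2-DMa (0.46, SE 0.26, edgeR adjusted p = 0.198) and Ciita (0.28, SE 0.42, edgeR adjusted p = 0.645) did not pass.

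The chaperone subunits were counted far less often than the chains they serve. H2-DMa had 455 CPM in macrophages, 289 in B cells, 682 in dendritic cells and 26.1 in T cells at 12 weeks. At 1 week it had 477 CPM in macrophages, 166 in B cells and 564 in dendritic cells, and 0 UMIs in T cells, which allows up to 125 CPM there. Dendritic cells were thus highest in both libraries and B cells lowest of the 3 presenting classes, the difference between macrophages and dendritic cells being within its error.

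The balance of the DM β chains had the same order over the 3 presenting classes in both libraries, with no test of the balance between classes. H2-DMb1 had 454 CPM in macrophages, 114 in B cells and 349 in dendritic cells at 12 weeks, and 566, 75.1 and 486 CPM in these classes at 1 week. T cells had 43.5 CPM of H2-DMb1 at 12 weeks (5 UMIs) and 0 UMIs at 1 week, which allows up to 125 CPM. The part of free RNA in the 11 H2-DMb1 UMIs of B cells at 12 weeks was not tested. H2-DMb2 had the opposite order between macrophages and B cells. It stood at 6.29 CPM in macrophages, 248 in B cells and 159 in dendritic cells at 12 weeks, and at 9.29 CPM in macrophages, 123 in B cells and 60.8 in dendritic cells at 1 week. T cells had 0 UMIs of H2-DMb2 in both libraries, which allows up to 26.1 CPM at 12 weeks and 125 CPM at 1 week, above the macrophage level.

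H2-DMb2 was lower in macrophages than in B cells, with a log2 value of -4.35 (SE 0.46, edgeR adjusted p = 8.99e-06), and lower than in dendritic cells, at -3.74 (SE 0.49, edgeR adjusted p = 0.000142). The size depended on the library. Without the 1-week library the values were -4.93 against B cells and -4.48 against dendritic cells, and without the 12-week library -3.80 and -2.58. B cells and dendritic cells did not differ past the threshold in H2-DMb2 (0.61, SE 0.49, edgeR adjusted p = 0.445), while H2-DMb1 was lower in B cells (-2.17, SE 0.42, edgeR adjusted p = 0.00189).

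Of the UMIs of H2-DMb1 and H2-DMb2 together, H2-DMb1 made up 98.6% in macrophages at 12 weeks (5197 of 5269 UMIs, exact 95% interval 98.3 to 98.9) and 98.4% at 1 week (6452 of 6558, 98.0 to 98.7). In B cells it made up 31.4% at 12 weeks (11 of 35 UMIs, 16.9 to 49.3) and 37.8% at 1 week (14 of 37, 22.5 to 55.2). In dendritic cells it made up 68.6% at 12 weeks (70 of 102, 58.7 to 77.5) and 88.9% at 1 week (56 of 63, 78.4 to 95.4). The order was macrophages, dendritic cells, B cells in both libraries, and the intervals of the 3 classes did not overlap within either library. These intervals treat UMIs as independent, while UMIs can come from the same cell. The 32 H2-DMb2 UMIs of dendritic cells at 12 weeks came from 14 cells, with up to 6 in a cell. Under other gates the order stayed but some intervals overlapped. With 0 C1q UMIs in the other classes, B cells (22.1 to 63.4) and dendritic cells (44.9 to 70.9) overlapped at 12 weeks, and macrophages (98.0 to 98.7) and dendritic cells (77.5 to 98.2) at 1 week. With the dendritic gate at 5 UMIs dendritic cells at 1 week again reached 98.2, and under the stricter cell filter B cells at 12 weeks ran from 8.52 to 75.5 against 58.7 to 77.5 in dendritic cells. The plot of the H2-DMb1 share shows these values.

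**Figure D2:**
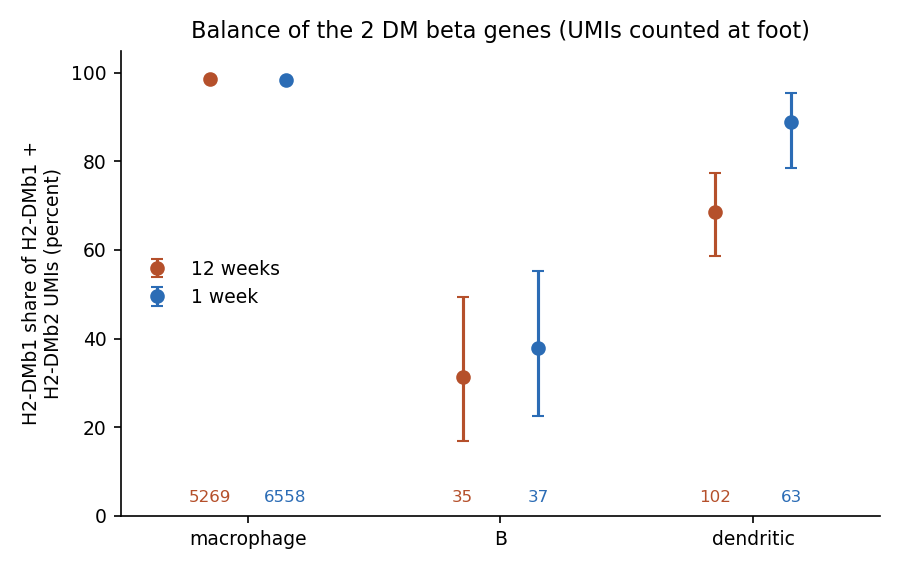
H2-DMb1 UMIs as a percentage of H2-DMb1 plus H2-DMb2 UMIs in macrophages, B cells and dendritic cells at 12 weeks and 1 week, with exact 95% intervals and the UMIs counted at the foot. Macrophages lie at 98.6% and 98.4%, dendritic cells at 68.6% and 88.9%, and B cells at 31.4% and 37.8%.

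The balance within the dendritic class rests on few cells, and its subsets had wide intervals. Dendritic cells with a UMI of Xcr1 or Clec9a, markers of the cross-presenting type 1 subset, had an H2-DMb1 share of 70% at 12 weeks (14 of 20 UMIs in 4 cells, 45.7 to 88.1) and of 97.2% at 1 week (35 of 36 UMIs in 5 cells, 85.5 to 99.9). Cells with a UMI of Cd209a, a marker of type 2 dendritic cells, had 66.7% at 12 weeks (18 cells, 54.8 to 77.1) and 84.2% at 1 week (4 cells, 60.4 to 96.6). A UMI of Ccr7 or Fscn1, genes of migrating dendritic cells, gave 70.5% at 12 weeks (16 cells, 57.4 to 81.5) and 88.2% at 1 week (7 cells, 72.5 to 96.7). Fscn1 had no UMI in dendritic cells at 12 weeks, so the group of that library rests on Ccr7 alone. A cell can stand in more than 1 of these groups. Among dendritic cells as gated, 8 at 12 weeks and 5 at 1 week had just 3 or 4 UMIs of the gate, the lowest number it admits.

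Per cell, H2-DMb2 was found in 61 of 1620 macrophages at 12 weeks (3.77%) and in 76 of 1243 at 1 week (6.11%), most of which held H2-DMb1 too (57 of 61 and 73 of 76). Among all macrophages H2-DMb1 was found in 86.9% at 12 weeks and 88.9% at 1 week. H2-DMb2 was thus mostly seen beside H2-DMb1, as most macrophages held it. H2-DMb2 was found in 12 of 23 B cells at 12 weeks and 11 of 25 at 1 week, and in 14 of 25 and 4 of 12 dendritic cells. Macrophage droplets with at least 3 UMIs of the B, T or dendritic lists numbered 40 at 12 weeks (2.47%) and 63 at 1 week (5.07%). They held 15 of the 72 H2-DMb2 UMIs of macrophages at 12 weeks and 44 of the 106 at 1 week. The B cell marker list summed to 7.43 CPM in macrophages at 12 weeks and 47.1 at 1 week. Without these droplets the H2-DMb1 share was 98.9% at 12 weeks and 98.9% at 1 week. The part of the remaining H2-DMb2 UMIs that comes from free RNA was not tested.

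H2-DMb1 and H2-DMb2 are neighbouring paralogs, so reads could be shared between them. In GENCODE M21 on GRCm38, the assembly that mm10 names, H2-DMb2 spans chr17:34143307-34151555 and H2-DMb1 chr17:34153072-34160230, both on the plus strand, next to H2-DMa at chr17:34119541-34139101. Their longest transcripts are 94.6% identical over the aligned bases, with an identical run of up to 221 bases. The last 400 bases, nearest to where 3′ libraries sample, are 70.1% identical, with no identical run above 28 bases, against the 91 bases of the cDNA read. H2-Ab1 (chr17:34257689-34269419), H2-Aa (chr17:34282744-34287823, minus strand) and H2-Eb1 (chr17:34305867-34316674) lie in the same region. Ciita lies at chr16:10480059-10528418, on the plus strand. On the opposite strand Ciita overlaps Dexi, H2-DMa overlaps Brd2 among other genes, and H2-Eb1 overlaps Gm20513. On the same strand H2-DMa overlaps CR974462.3 and Cd74 overlaps Mir5107. The sources used here do not give how reads in such overlaps were counted.

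Class II promoters share an X box and a Y box, which carry the proteins that Ciita binds to. RefSeq promoter windows (GRCm38.p6, from 250 bases before to 50 after the RefSeq start) were found for 5 of the 8 genes, without H2-Ab1, Cd74 and Ciita. The windows of both DM β genes are shown whole because their transcripts had opposite patterns, and a stretch of 50 or 49 bases of H2-Aa and H2-Eb1 is shown to compare the boxes. Capitals mark 7 letters at the X box and 5 at the Y box; for H2-DMb2 they mark the letters aligned to those of H2-DMb1. The RefSeq starts of H2-DMb1 and H2-DMb2 lie inside the GENCODE spans given above, so these windows do not begin at the first base of those spans. All are written 5′ to 3′ on the strand of the gene, which is minus for H2-Aa and plus for the others.
H2-DMb1, chr17:34152941-34153240: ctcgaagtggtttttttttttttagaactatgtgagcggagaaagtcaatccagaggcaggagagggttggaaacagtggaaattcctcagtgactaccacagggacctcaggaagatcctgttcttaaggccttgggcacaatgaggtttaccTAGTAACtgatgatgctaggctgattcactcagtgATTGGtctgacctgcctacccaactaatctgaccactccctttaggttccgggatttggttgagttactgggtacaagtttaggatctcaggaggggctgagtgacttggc
H2-DMb2, chr17:34144999-34145298: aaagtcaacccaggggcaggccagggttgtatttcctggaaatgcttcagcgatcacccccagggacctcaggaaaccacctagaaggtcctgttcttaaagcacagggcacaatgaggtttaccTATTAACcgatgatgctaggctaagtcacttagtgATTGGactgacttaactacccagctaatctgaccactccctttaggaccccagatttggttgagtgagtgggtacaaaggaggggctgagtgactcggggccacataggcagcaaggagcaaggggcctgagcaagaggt
H2-Aa, chr17:34287862-34287911: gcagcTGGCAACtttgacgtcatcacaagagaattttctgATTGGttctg
H2-Eb1, chr17:34305769-34305817: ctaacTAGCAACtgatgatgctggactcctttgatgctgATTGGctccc

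The letters TNGNAAC followed on the same strand by ATTGG, with starts 25 to 45 bases apart, were found in the windows of H2-Aa, H2-Eb1 and H2-DMb1 and not in those of H2-DMb2 and H2-DMa. The pair was also in the window of H2-Ob, a gene lower in macrophages than in B and dendritic cells. These letters were chosen after these promoters had been read, so their presence in them is no test. The pair was in 0.393% of 32851 RefSeq windows of the same length on the strand of the gene, and in 0.819% on either strand. The letters ATTGG alone were in 37.4% and TNGNAAC alone in 35.2% of windows on either strand. The windows of H2-DMb1 and H2-DMb2 were 84.2% identical where aligned. In the 50 bases from 5 before the X letters to 5 after the Y letters, 44 were identical. Counted from the first of these bases and with the H2-DMb1 base first, the 6 substitutions were G8T, T13C, G28A, T30G, C36T and T46A, of which G8T falls in the X letters (positions 6 to 12) and none in the Y letters (41 to 45).

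The DO genes were, like H2-DMb2, lower in macrophages. H2-Oa and H2-Ob encode DO, the inhibitor of DM known mainly from B cells. H2-Oa had 25.6 CPM in macrophages, 103 in B cells and 209 in dendritic cells at 12 weeks, and 29.9, 64.3 and 69.4 CPM in these classes at 1 week. H2-Ob had 25.5 CPM in macrophages, 145 in B cells and 115 in dendritic cells at 12 weeks, and 16.9, 59.0 and 104 CPM in these classes at 1 week. Both were lower in macrophages than in B cells (log2 fold -1.42 for H2-Oa and -2.04 for H2-Ob, edgeR adjusted p = 0.0322 and 0.0019) and than in dendritic cells (-2.23 and -2.22, edgeR adjusted p = 0.00146 and 0.00131). H2-Eb2 was too low to be tested, with 15 UMIs in macrophages at 12 weeks and 13 at 1 week.

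Genes that cut the invariant chain and supply peptides were higher in macrophages. Of 10 tested genes of the 12 in the traffic and peptide supply list, 9 were higher and 0 lower than in B cells, and 6 higher and 0 lower than in dendritic cells, with medians of 3.89 and 1.88 against 0.08 and 0.05 over all genes. The shares of all genes called higher were 24.5% and 12.3%, and those called lower 12.7% and 7.29%. Ctss, the cathepsin that makes the last cut in the invariant chain, had 3971 CPM in macrophages, 289 in B cells and 1340 in dendritic cells at 12 weeks, and 3394, 284 and 729 CPM at 1 week. Its log2 fold change was 3.74 against B cells and 1.99 against dendritic cells (edgeR adjusted p = 5.69e-06 and 0.00102). Lgmn, the asparagine endopeptidase of endosomes, was higher than in B cells by 4.88 and than in dendritic cells by 1.76 (edgeR adjusted p = 2.58e-06 and 0.00156). Ctsl, Ctsb, Ctsd and the endosomal tetraspanin Cd63 were higher than in both classes, and Ctsh, Cd83 and Sppl2a than in B cells.

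Other lists also differed between these classes. Of 6 heat shock genes, which rise in stressed or dissociated cells, 5 were higher in macrophages than in B cells and 6 than in dendritic cells, with 0 lower (medians 3.31 and 3.95). Of 5 tested interferon-stimulated genes of 10 listed, 5 and 4 were higher and 0 lower (medians 6.12 and 2.06). The part of either in the class II differences was not tested. Of 8 tested class I presentation genes, B2m was higher in macrophages than in B cells, and the immunoproteasome genes Psmb8 and Psmb9 were lower than in dendritic cells. Of 4 costimulation genes, Cd86 and Cd40 were higher than in B cells and Cd80 was lower than in dendritic cells.

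Of the path from interferon gamma to Ciita, 10 of 11 genes were tested. Against B cells 4 were higher and 0 lower: Spi1 (2.63), the myeloid factor known to act at Ciita promoters, Socs3 (1.81), Jak2 (2.11) and the receptor gene Ifngr2 (1.36). Against dendritic cells 0 were higher and 1 lower, Jak2 (-1.77, SE 0.29, edgeR adjusted p = 0.000473). Of the 8 proteins that sit on the class II promoter or help to, 1 gene (Creb1) had counts high enough for the test and it was not called in any contrast. Rfx5 had 35 UMIs in macrophages at 12 weeks and 43 at 1 week.

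Ciita was called in no contrast between classes, and its order differed between the libraries. It had 39.3 CPM in macrophages (35.8 to 43.1, exact Poisson interval), 72.3 in B cells (29.1 to 149) and 74.7 in dendritic cells (41.8 to 123) at 12 weeks. At 1 week it had 84.5 CPM in macrophages (79.3 to 90.02), 26.8 in B cells (8.70 to 62.6) and 43.4 in dendritic cells (14.1 to 101). Macrophages were thus lowest of these 3 classes at 12 weeks and highest at 1 week, and T cells had 0 UMIs in both libraries. The intervals of the 3 classes overlapped at 12 weeks, and at 1 week that of macrophages lay above that of B cells and within that of dendritic cells. Its log2 fold against B cells was 0.56 (SE 0.58, edgeR adjusted p = 0.476), -0.54 without the 1-week library and 1.55 without the 12-week library. B and dendritic values rest on 5 to 15 UMIs per library.

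Across single macrophages class II transcripts were even. Each cell with at least 3000 UMIs was thinned to 3000, which left 1530 macrophages at 12 weeks and 1089 at 1 week and left out 90 and 154 shallower ones. The sum of H2-Aa, H2-Ab1, H2-Eb1 and Cd74 had a median of 213 UMIs per cell at 12 weeks (range 8 to 402, coefficient of variation 23.9%) and of 206 at 1 week (0 to 405, 28.3%). The median was 64 in B cells, 194.5 in dendritic cells and 2.5 in T cells at 12 weeks, and 49, 183.5 and 1 at 1 week. The 90th percentile of macrophages was 1.85 times the 10th at 12 weeks and 2.08 times at 1 week. Macrophages at or below the B cell median made up 0.327% at 12 weeks and 1.38% at 1 week.

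**Figure D3:**
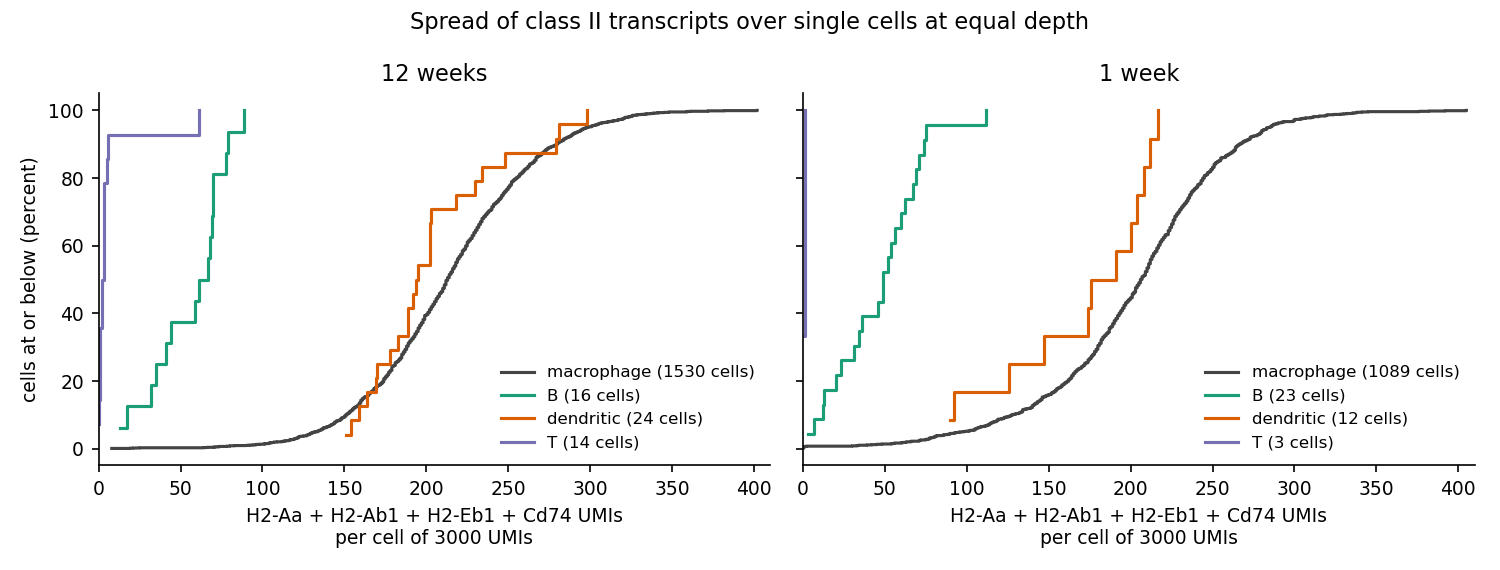
Cumulative share of cells (percent) by the summed UMIs of H2-Aa, H2-Ab1, H2-Eb1 and Cd74 per cell of 3000 UMIs, for the 12-week and the 1-week library. Macrophages, with medians of 213 and 206, form 1 continuous curve near that of dendritic cells (194.5 and 183.5) and to the right of B cells (64 and 49); 1 T cell at 12 weeks reached 61.

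Beyond the noise of counting, the members other than Ciita and H2-DMb2 varied less between macrophages than most genes. The coefficient of variation left after counting error at 12 weeks was 23.9% for H2-Aa, 27.9% for H2-Ab1, 24.2% for H2-Eb1, 26.1% for Cd74, 22.9% for H2-DMa and 51.9% for H2-DMb1. The median was 63.4% over 2905 genes with a mean of at least 0.1 UMI per thinned cell, which H2-DMb2 did not reach. The genes compared were not matched to the members by level. At 1 week these genes ran from 28.7% for Cd74 to 32.3% for H2-DMa, with H2-DMb1 at 50.3%, against a median of 60.2% over 2956 genes. Ciita stood apart at 162% at 12 weeks and 93.4% at 1 week, above 96.5% and 81.1% of genes, from a mean of 0.125 UMIs per cell at 12 weeks and 0.230 at 1 week.

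At 3000 UMIs per cell H2-DMa was detected in 73.4% of macrophages at 12 weeks and 74.6% at 1 week, and H2-DMb1 in 68.1% and 76.0%. Ciita was detected in 10.2% of macrophages at 12 weeks (8.72 to 11.8) and in 18.8% at 1 week (16.5 to 21.3). Without thinning the shares were 18.0% and 36.4%, since detection rises with depth. In T cells Ciita was found in 0 of 14 and 0 of 3 thinned cells, a number too small to set a useful background.

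The 4 abundant genes rose and fell together from cell to cell, while the chaperone genes followed them weakly. Across macrophages, Spearman's rho between pairs of H2-Aa, H2-Ab1, H2-Eb1 and Cd74 ran from 0.46 to 0.58 at 12 weeks and from 0.52 to 0.63 at 1 week. H2-DMb1 had a rho of 0.19 with their sum at 12 weeks and 0.18 at 1 week, H2-DMa 0.17 and 0.15, and H2-DMb2 0.01 and -0.03. H2-DMa and H2-DMb1, the partners of 1 dimer, had a rho of 0.13 at 12 weeks and 0.17 at 1 week with each other. All correlations here are across cells of 1 library, which share its depth, free RNA and the fixed total of 3000 UMIs, and are given as descriptions. Low counts pull a rho towards 0, so the weaker values of the chaperone genes are no measure of looser coupling.

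Cells with more Ciita UMIs had a similar or slightly higher class II sum. The rho of Ciita with the class II sum was 0.03 at 12 weeks and 0.08 at 1 week, and with the 7 other members it ran from -0.03 to 0.09. Cells with 0, 1, 2 and 3 or more Ciita UMIs averaged 213.4, 213.8, 230.0 and 246.7 class II UMIs at 12 weeks (1374, 128, 22 and 6 cells) and 198.7, 213.4, 204.9 and 238.2 at 1 week (884, 167, 30 and 8 cells). At 1 Ciita UMI the mean was thus 1.00 times that at 0 at 12 weeks and 1.07 times at 1 week. At 5000 UMIs per cell the rho was 0.15 at 1 week.

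**Figure D4:**
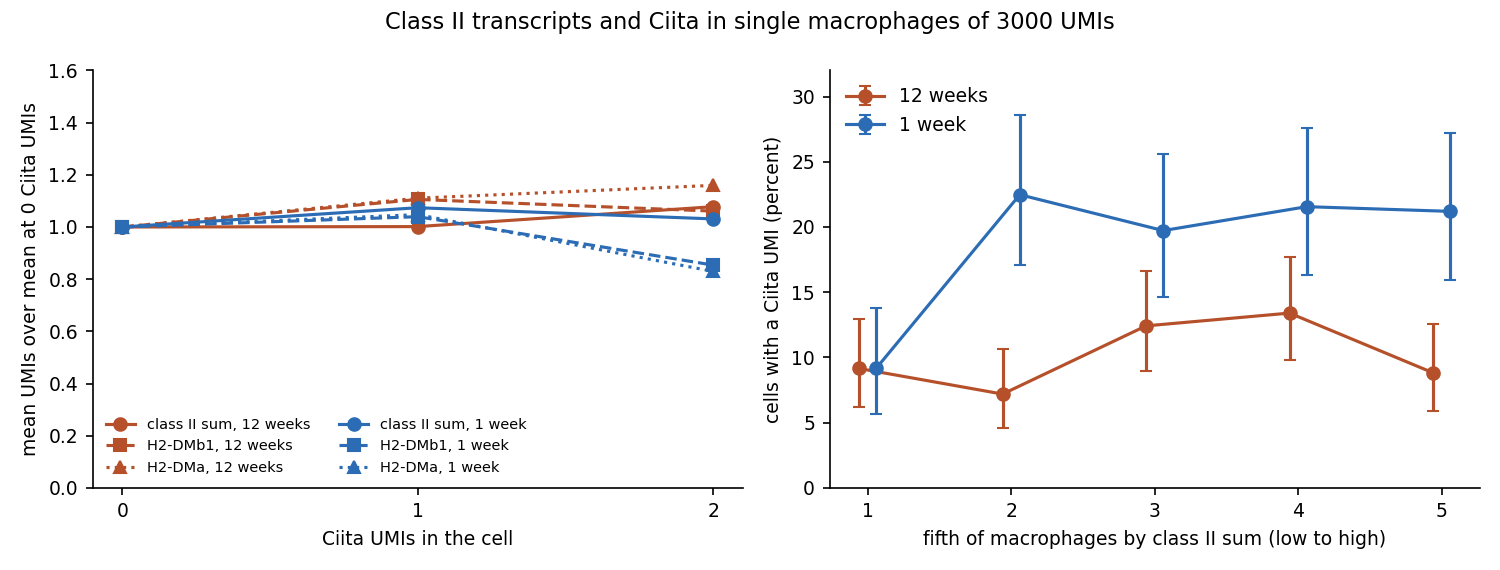
Left, mean UMIs of the class II sum, H2-DMb1 and H2-DMa in macrophages with 0, 1 or 2 Ciita UMIs, divided by the mean at 0, in each library; right, share of macrophages with a Ciita UMI (percent, exact 95% intervals) by quintile of the class II sum. The ratios of the class II sum stay between 1.00 and 1.08, and those of H2-DMa and H2-DMb1 run from 0.83 to 1.16. The lowest quintile at 1 week has a Ciita share of 9.17% against 19.7% to 22.5% in the others.

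Read the other way, the share of macrophages with a Ciita UMI was 9.15%, 7.19%, 12.4%, 13.4% and 8.82% from the lowest to the highest quintile of the class II sum at 12 weeks. At 1 week it was 9.17%, 22.5%, 19.7%, 21.6% and 21.2%. The interval of the lowest quintile at 1 week (5.69 to 13.8) lay below those of the other quintiles of that library, and the intervals at 12 weeks overlapped. The quintiles were cut from the same thinned cells in which Ciita was counted.

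The genes most like the class II sum across macrophages, of 1248 with a UMI in at least 20% of thinned macrophages in both libraries and ranked by the lower of the 2 values of rho, were Cst3, Ctss, H2-DMb1, Wfdc17, H2-DMa, Tnfaip2, Cyba and Ctsz. Cst3, which encodes the cathepsin inhibitor cystatin C, had a rho of 0.30 at 12 weeks and 0.45 at 1 week, and Ctss 0.22 and 0.32. H2-DMb1 and H2-DMa thus ranked 3 and 5. The median rho over all ranked genes was -0.01 at 12 weeks and -0.01 at 1 week. The 8 genes at the other end were Hspa1b, Hspa8, Hspa1a, Hsp90ab1, Dnaja1, Kcnq1ot1, Hnrnpa2b1 and Chchd2, of which the first 5 encode heat shock chaperones. Hspa1b had a rho of -0.22 at 12 weeks and -0.22 at 1 week, and Hsp90ab1 -0.19 and -0.28. With a total fixed at 3000 UMIs, a gene that takes more leaves fewer for the others. The part of this in the negative values above was not tested.

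The genes most like Ciita were Slfn2, Marcks, Icam1, Arl5c, Cd83, Tnfaip2, Rassf4 and P2ry6. Slfn2 had a rho of 0.15 at 12 weeks and 0.15 at 1 week, Marcks 0.20 and 0.12, and Cd83, which stabilises class II at the cell surface, 0.12 and 0.12. These values were higher than those of any class II gene with Ciita in both libraries, and all are weak correlations in sparse counts. Among 1252 genes ranked in the same way, H2-Ab1 ranked 32, H2-Aa 154, H2-DMa 356, H2-Eb1 459, Cd74 467 and H2-DMb1 503. The median rho with Ciita over the ranked genes was 0.007 at 12 weeks and 0.005 at 1 week. At the other end, looked at after the values were seen, Hspa1a had a rho of -0.17 at 12 weeks and -0.14 at 1 week, and Hspa8 -0.18 and -0.14. Spi1, of the path to Ciita, had 0.07 at 12 weeks and 0.12 at 1 week.

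Between the time labels Ciita had the ratio farthest from 1 of the 8 genes in macrophages. Ciita stood at 39.3 CPM at 12 weeks, against 84.5 at 1 week, a ratio of 0.465 (0.415 to 0.521) that 1.38% of the 6170 genes of at least 10 CPM undercut. Of the 7 members among these genes Ciita was the 1 past 1.5-fold, where 10.7% of genes were, 4.98% higher and 5.72% lower. Per thinned cell the ratio was 0.542. H2-Ab1 had a ratio of 1.25, H2-Aa of 1.19, Cd74 of 1.04, H2-Eb1 of 0.991, H2-DMa of 0.954 and H2-DMb1 of 0.803. Scaling by TMM, whose factor of 0.949 raises each ratio, put H2-Eb1 at 1.04 and H2-DMa at 1.01. H2-DMb2, below 10 CPM, had a ratio of 0.677 (0.495 to 0.922), and the DO gene H2-Ob, which is not among the 8, had 1.51 (1.25 to 1.82).

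**Figure D5:**
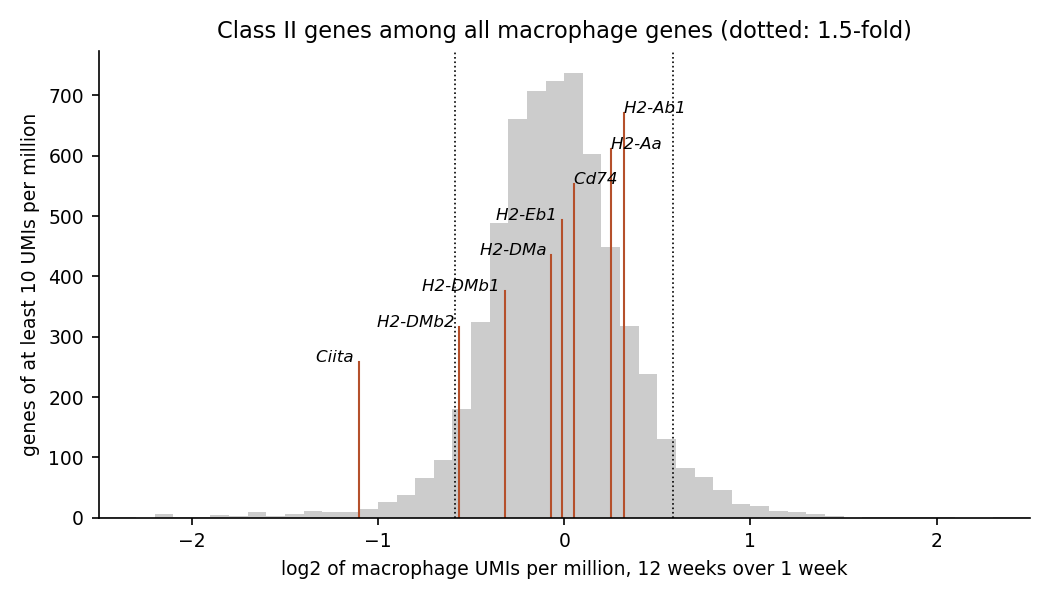
Number of genes by log2 of the macrophage level at 12 weeks over 1 week, for genes of at least 10 CPM, with the class II genes marked by lines of arbitrary height and the 1.5-fold limits dotted. Ciita lies at -1.10 and the other members of at least 10 CPM between -0.32 and 0.32; H2-DMb2 is marked at -0.56 although it is below 10.

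Each ratio compares 2 pools of mice and has no replicate check. Other genes moved between the libraries as well. Of 10 interferon-stimulated genes 8 were past 1.5-fold higher at 12 weeks, among them Ifit3 at 74.99 CPM against 29.5 at 1 week, and of 6 heat shock genes 5 were, among them Hspb1 at 1032 CPM against 209. Spi1 had 379.7 CPM at 12 weeks and 477.0 at 1 week. The endocrine transcripts Ins1, Ins2, Gcg, Sst and Iapp, all 5 detected, summed to 5731 CPM in macrophages at 12 weeks and 19609 at 1 week. The part of these differences in the ratio of Ciita was not tested.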

How the data were processed

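The members and gene lists were chosen with earlier results of these data known. Islet immune cells of 2 libraries were measured. The authors deposited unnormalized UMI counts for each gene in each barcode. They used Cell Ranger and mm10 per the submitters' processing notes, in version 3.1.0 per the file headers. The sources used here do not give how barcodes were called as cells. Counts per library were 12448628 at 12 weeks and 12858754 at 1 week.

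Barcodes needed at least 500 genes, 1000 UMIs and at most 10% mitochondrial UMIs. Macrophages had 5 or more UMIs of the C1q genes. The other classes had fewer than 5, at least 5 of the B or T list or 3 of the dendritic list, and under 3 of each other list. No doublet caller was run; mixed droplets were left out in an alternative. These are gates, not clusters.

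UMIs were summed per class and library and tested with edgeR 4.0.16 (R 4.3.3), with TMM, filterByExpr, the library as a block and 3 residual degrees of freedom. The block removes a library difference common to the classes, so the spread left for a gene is what differs between the libraries from class to class, T cells included. For each p-value edgeR draws this spread towards that of all genes, with a prior of 11.5 degrees of freedom. The p-values thus rest largely on the spread shared over genes. Gate genes were left out of counts of calls. The fit was tested on simulated data with known changes in macrophages against the mean of B and dendritic cells. It called 100% of genes changed by a log2 of 2 or -2. At a log2 of 1 it called 72% and at -1 it called 60.5%, with 0.412% of unchanged genes called. Intervals are exact (Clopper-Pearson or Poisson) at 95%, a count of 0 allows up to 3 UMIs, and both cover counting error only. Named genes were all members, list members that passed, and the 8 highest by likeness (and 8 lowest for the class II sum). Sequences came from RefSeq windows and transcripts from GENCODE M21.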

Additional observations from a re-analysis of the deposited data

Results flagged for a closer look

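The difference between macrophages and another class had opposite signs in the libraries for Ciita and H2-Eb1. Ciita in macrophages minus B cells was -32.9 CPM at 12 weeks and 57.7 CPM at 1 week, and in macrophages minus dendritic cells -35.4 CPM at 12 weeks and 41.1 CPM at 1 week. H2-Eb1 in macrophages minus dendritic cells was -104.8 CPM at 12 weeks and 1410.5 CPM at 1 week, while its TMM-scaled log2 difference was 0.13 at 12 weeks and 0.28 at 1 week. With 1 library per time label these changes of sign were not tested.

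Barcodes outside the classes held class II UMIs above the T cell level, which was 0.263% at 12 weeks and 0.0332% at 1 week. In the cells that no gate took, 59 at 12 weeks and 52 at 1 week, class II made up 1.72% of UMIs at 12 weeks and 0.527% at 1 week. In barcodes left out by the cell filters, 115 at 12 weeks and 211 at 1 week, it made up 3.81% at 12 weeks and 4.04% at 1 week, and 49 and 74 of those barcodes had at least 5 C1q UMIs.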

How the results depend on the processing

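Of 32 pairs of a member and a contrast between classes, 28 kept their direction and their side of the threshold under every alternative fit that tested them. The exceptions were Cd74 in 3 contrasts and Ciita in 1. Cd74 did not pass for macrophages against the mean of B and dendritic cells with DESeq2 (log2 1.34) or with no replicate block, that is, without the library term (1.25), and for B against dendritic cells with DESeq2 (-1.55), with no replicate block (-1.58) and with the dendritic gate at 2 (-1.40) or 5 UMIs (-1.31). Ciita in macrophages against dendritic cells, -0.003 as reported, was above 0 with RLE scaling (0.10), no filter (0.19), DESeq2 (0.24), no replicate block (0.11), no T class (0.076), at least 20 C1q UMIs (0.0077) and a dendritic gate of 2 UMIs (0.067). Leaving out 1 library gave Ciita from -0.78 to 1.07 against dendritic cells, from -0.54 to 1.55 against B cells and from -0.66 to 1.31 against their mean. The cause was not tested.

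Genes called higher with no filter on low counts were 1337 against the mean of B and dendritic cells (121 lower), 1181 against B cells and 522 against dendritic cells. With 0 C1q UMIs in the other classes, which leaves fewer cells, 406 were higher against the mean, and 415 higher and 219 lower against B cells. Under the stricter cell filter 39 were higher and 167 lower in B than in dendritic cells. Without the T class 1 member was higher in macrophages than in dendritic cells. The H2-DMb1 share was 98.9% in macrophages at 1 week without mixed droplets and 58.3% in dendritic cells at 12 weeks with 0 C1q UMIs. At 2000 and 5000 UMIs per cell, Ciita was found in 7.04% and 13.8% of macrophages at 12 weeks and in 13.0% and 29.5% at 1 week. The class II mean at 1 over 0 Ciita UMIs was 1.045 and 1.048 at these depths at 12 weeks, and the rho of Ciita with the class II sum was 0.149 at 5000 UMIs at 1 week. B and dendritic values rest on 12 to 25 cells a library, and Ciita there on 5 to 15 UMIs.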
